A study of Mus musculus with 15 samples.

Results

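The chemokine genes Ccl11, Ccl24, Ccl17, Ccl22 and Ccl1, all known from type 2 immunity, were followed through every library of the series. They were taken by symbol from the deposited expression table, and are 5 of its 21110 genes. Basophils, eosinophils and natural helper cells (innate lymphocytes now called group 2 innate lymphoid cells) were sorted from mouse lung and their RNA sequenced in 15 libraries, which form 8 groups. All mice are labelled as strain C57BL6/J, and the labels give no age. Papain, a plant protease used as an airway allergen, was given into the nose at 50 ug per mouse over 3 days, and naive mice were untreated. Basophils were gated on FceR1 and CD49b without c-kit, eosinophils on SiglecF with low Gr1 and no autofluorescence, and natural helper cells as lineage-negative cells carrying Thy1.2, IL7Ra and CD25. There were 2 libraries each of papain and naive basophils, of CD11c+ and CD11c- eosinophils from papain mice, of naive eosinophils, and of papain and naive natural helper cells. The eighth group was 1 library of natural helper cells from papain mice, marked 3'UTRKO with no word on which gene was altered.

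Chemokines are small secreted proteins that draw cells along a gradient through receptors on the cell surface. Ccl11 and Ccl24 are eotaxins, which act on Ccr3 and attract eosinophils and basophils. Ccl17 and Ccl22 act on Ccr4, which is carried by type 2 helper T cells and regulatory T cells among others, and Ccl1 acts on Ccr8. IL-4 and IL-13, signalling through the transcription factor Stat6, are known inducers of eotaxins and of the Ccr4 ligands.

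The values are FPKM (fragments scaled to transcript length and to library size) rounded to whole numbers, so levels can be set side by side between genes, and the read depth behind a value is unknown. Log2 differences are between group means of log2(FPKM + 1), with their standard error. A gene was called higher or lower when the Benjamini-Hochberg adjusted p of limma's moderated test over 14257 genes was under 0.05. Nothing in the labels says that replicates came from separate animals, so a p-value here reflects the spread between libraries only, which may be technical. FPKM summed to between 374841 and 570208 in a library, and between 9995 and 13049 genes were above 0. The sorted libraries also held RNA of other cells: of 9 fibroblast markers all 9 were above 0 in both papain basophil libraries. Epx, an eosinophil granule gene, was listed at 0 in both CD11c+ libraries, in 1 CD11c- library and in 1 naive eosinophil library. Every eosinophil library still had at least 9 of 10 eosinophil markers above 0. Their sums were 1199 to 1235 FPKM in CD11c+, 895 to 905 in CD11c- and 604 to 2827 in naive eosinophils. In sorted bulk samples, fewer cells of a type and less RNA per cell cannot be told apart.

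Stat6 and NF-kB are known regulators of chemokine genes, so promoters were read for the letters these factors prefer. The Stat6 letters were TTC and GAA with any 4 bases between them, and the NF-kB letters were GGG and TTCC with any 3 bases between them. Promoter windows of 250 bases before to 50 after the gene's start, from RefSeq on the GRCm38.p6 build, were at hand for 3 of the 5 genes: Ccl17, Ccl22 and Ccl1. The sequences below hold the matches, printed 5′ to 3′ along the gene's strand with the matched letters in capitals.
Ccl17: cgagtgaccaTTCTCTGGAAagccacaaac
Ccl1: tctgcacttgGGGAAGTTCCcaaggccact
The first lies at chr8:94810289-94810318 on the plus strand. Its capitals match the Stat6 letters and begin 154 bases before the start of Ccl17. The second lies at chr11:82179989-82180018 on the minus strand. Its capitals match the NF-kB letters and begin 196 bases before the start of Ccl1, and a further match on the opposite strand overlaps it. The window of Ccl22 held neither set of letters, and none of the 3 windows held TATAAA. Over all 32851 promoters of that length, read on both strands, 6.95% held the Stat6 letters, 5.56% the NF-kB letters and 13.62% TATAAA. A match of letters is a description of the sequence and no evidence of binding.

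The 5 genes were spread unequally over the sorted cells, with Ccl17 and Ccl22 much alike. Ccl11 was above 0 in 11 of 15 libraries, Ccl24 in 8, Ccl17 in 14, Ccl22 in 12 and Ccl1 in 13. Medians over the 15 libraries were 26 FPKM for Ccl11, 1 for Ccl24, 18 for Ccl17, 6 for Ccl22 and 3 for Ccl1, so only the natural helper cells give Ccl1 its high values. Ccl1 reached 10 FPKM or more in 5 libraries, which are the 5 of natural helper cells. It made up 94.45% of the summed FPKM of the 5 genes in the 3'UTRKO library, 86.88% and 87.41% in papain and 97.69% and 98.88% in naive natural helper cells. In naive basophils and naive eosinophils the Ccr4 ligands Ccl17 and Ccl22 held most of the sum, and papain libraries of these cells held Ccl11 beside them.

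**Figure D1:**
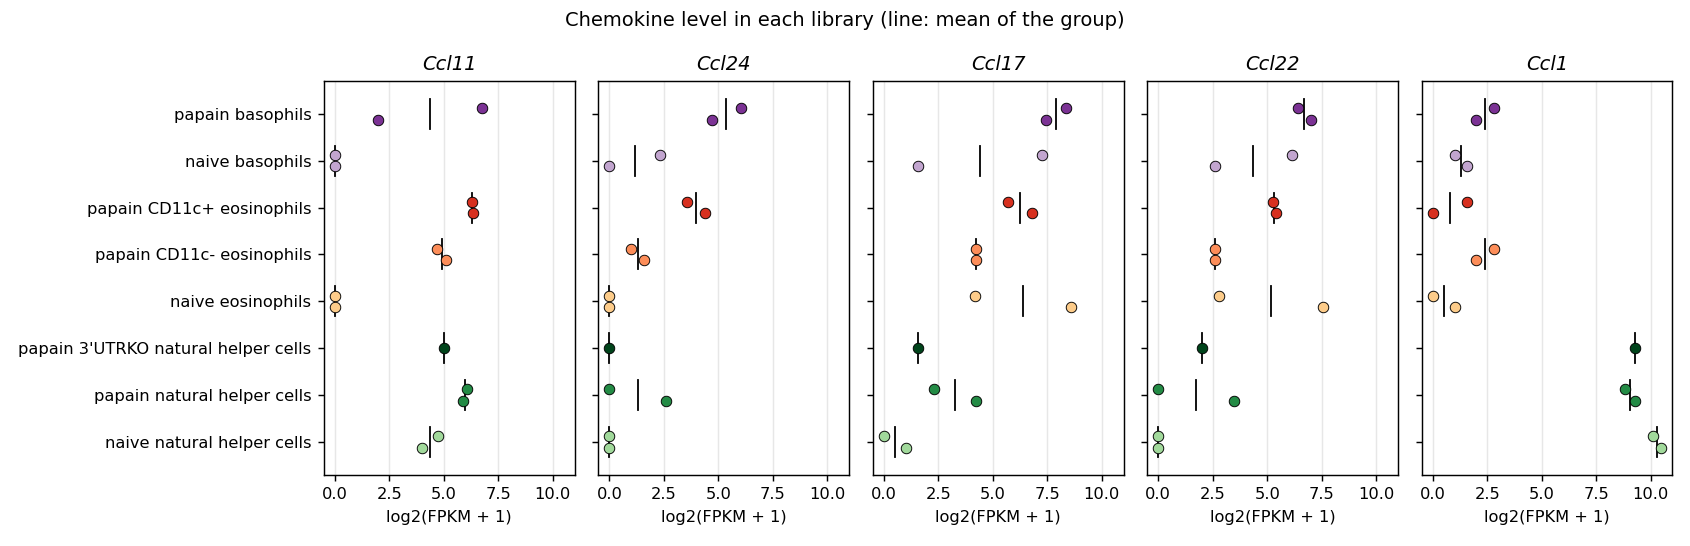
FPKM (axis of log2(FPKM + 1)) of the 5 chemokine genes in each of the 15 libraries, grouped by cell type with papain groups beside their naive group. Ccl1 stands at 457 to 1408 FPKM in the 5 natural helper cell libraries and at 6 FPKM or less elsewhere, and Ccl11 is listed at 0 in the naive basophils and naive eosinophils.

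Ccl11, the eotaxin that tissue cells such as fibroblasts are best known to make, was present in every papain library and listed at 0 in all 4 libraries of naive basophils and naive eosinophils. It had 107 and 3 FPKM in papain basophils, against 0 and 0 in naive basophils. In eosinophils it had 77 and 79 FPKM in the CD11c+ gate and 25 and 33 FPKM in the CD11c- gate, against 0 and 0 in naive eosinophils. In natural helper cells it had 31 FPKM in the 3'UTRKO library and 65 and 57 FPKM in papain cells, against 26 and 15 FPKM in naive cells. Means were 55.0 ± 73.5 FPKM in papain basophils, 78.0 ± 1.41 in CD11c+ and 29.0 ± 5.66 in CD11c- eosinophils, and 61.0 ± 5.66 in papain against 20.5 ± 7.78 in naive natural helper cells (SD, n = 2 each). Ordered by mean, CD11c+ eosinophils stood first, followed by papain natural helper cells, papain basophils, the 3'UTRKO library, CD11c- eosinophils and naive natural helper cells. Libraries of neighbours in this order overlapped except between CD11c+ eosinophils and papain natural helper cells, and between naive natural helper cells and the naive groups at 0.

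Papain basophils differed from naive basophils in Ccl11 by 4.38 ± 1.16 on the log2 scale, with an adjusted p of 0.0246 by limma. The median of all genes in this comparison was 0.50, so the difference was 3.88 relative to it. The pair of papain libraries lay far apart, and the difference was 2.00 without papain library 1, the one at 107 FPKM, and 6.75 without papain library 2. The call was lost without naive library 1 (adjusted p = 0.0706) or naive library 2 (0.111), with a pseudocount of 4 (0.0605) and in a fit to these 2 groups alone (0.280). CD11c+ eosinophils differed from naive eosinophils in Ccl11 by 6.30 ± 1.16 (adjusted p = 0.0114). That call was lost without CD11c+ library 2 (adjusted p = 0.0658), naive library 1 (0.0764) or naive library 2 (0.0569), and the difference stayed between 6.29 and 6.32. Because one side of these differences is listed at 0, their size depends on the 1 FPKM added before the log, and no fold is given. A group listed at 0 in both libraries also adds no spread to the estimate behind the standard error and the p. Both limits hold for the later differences of Ccl11 and Ccl24 from groups at 0. CD11c- eosinophils differed from naive eosinophils by 4.89 ± 1.16, which did not pass (adjusted p = 0.0759). It passed with a pseudocount of 0.5 (0.0393), with median-ratio scaling (0.0494) and in a fit to these 2 groups alone (0.00419). Papain natural helper cells differed from naive ones by 1.57 ± 1.16 (adjusted p = 0.706), with both papain libraries above both naive libraries.

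Fibroblast markers moved with Ccl11 in part. Their summed FPKM was 1580 to 4087 in papain basophils, against 5 to 52 in naive basophils, where 4 to 6 of the 9 markers were above 0 and Lum, Pdgfra and Fbln1 were at 0 in both libraries. In eosinophils the sum was 2400 to 2515 in the CD11c+ gate and 934 to 1184 in the CD11c- gate, against 7 to 25 in naive eosinophils, where Col3a1, Lum, Pdgfra and Fbln1 were at 0. In natural helper cells it was 190 in the 3'UTRKO library and 525 to 722 in papain cells, against 341 to 486 in naive cells, with all 9 markers above 0 in each. The papain basophil library with 107 FPKM of Ccl11 had the sum of 4087, and the library with 3 FPKM had 1580. Other libraries went against this: the sum of 1580 was above both CD11c- libraries, which had 25 and 33 FPKM of Ccl11. It was also above both papain natural helper cell libraries, which had 65 and 57 FPKM. Mgp alone gave 3141 and 1201 FPKM of the papain basophil sums. All 9 fibroblast markers were called higher in papain basophils, 9 of 9 in CD11c+ eosinophils and 8 of 9 in CD11c- eosinophils, and 0 of 9 in papain natural helper cells. Of all genes, 22.1% were called higher in papain basophils and 9.93% in CD11c+ eosinophils. In either direction 2.24% were called in CD11c- eosinophils and 0.786% in papain natural helper cells. Over the 15 libraries the log2 level of Ccl11 and that of the summed fibroblast markers had a Pearson correlation of 0.858, a description of libraries that share groups. Other cell markers moved in the papain basophil libraries too, beside both Ccl11 and Ccl24. The summed FPKM of 10 basophil markers was 803 to 2165 in papain basophils, against 6440 to 7363 in naive basophils, and 9 of the 10 were called lower (median log2 difference -2.77). The sum of 12 epithelial markers was 20917 to 35751 in papain against 6704 to 8771 in naive basophils, with 9 called higher. The sum of 8 endothelial markers was 112 to 331 in papain against 29 to 49 in naive basophils, with 6 called higher and Tek and Ptprb at 0 in the naive libraries. In CD11c+ eosinophils 5 of the 12 epithelial and 3 of the 8 endothelial markers were called higher than in naive eosinophils. The part of fibroblast, epithelial, endothelial and basophil RNA in the Ccl11 and Ccl24 differences was not tested.

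Ccl24, the eotaxin that macrophages are known to produce after IL-4, was lower than Ccl11 in most libraries and highest in papain basophils. It had 65 and 25 FPKM in papain basophils, against 4 and 0 FPKM in naive basophils. It had 11 and 20 FPKM in CD11c+ eosinophils and 1 and 2 FPKM in CD11c- eosinophils, against 0 and 0 in naive eosinophils. Among natural helper cells it had 0 FPKM in the 3'UTRKO library and 0 and 5 FPKM in papain cells, against 0 and 0 in naive cells. The order of means was papain basophils (45 ± 28.3 FPKM), CD11c+ eosinophils (15.5 ± 6.36), papain natural helper cells (2.5 ± 3.54), naive basophils (2.0 ± 2.83) and CD11c- eosinophils (1.5 ± 0.707; SD, n = 2 each), with the other 3 groups at 0. Papain basophils and CD11c+ eosinophils did not overlap with each other or with the groups that followed them.

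Ccl24 rose in papain basophils by 4.21 ± 0.93 on the log2 scale (limma, adjusted p = 0.0135), or 3.71 relative to the median of all genes. The call was lost without naive library 2 (3.05, adjusted p = 0.0960) or papain library 1 (3.54, adjusted p = 0.0612), and in a fit to these 2 groups alone (0.168). It rose in CD11c+ eosinophils against naive eosinophils by 3.99 ± 0.93 (adjusted p = 0.0284), and that call was lost when any 1 of the 4 libraries was left out (adjusted p between 0.0506 and 0.143). The difference of 1.29 ± 0.93 between CD11c- and naive eosinophils (adjusted p = 0.621), and the one of the same size between papain and naive natural helper cells (0.698), did not pass. Among papain groups, Ccl24 was higher in basophils than in CD11c- eosinophils by 4.08 ± 0.93 (adjusted p = 0.0287) and than in natural helper cells by 4.08 ± 0.93 (0.0190). The difference of 1.38 ± 0.93 between papain basophils and CD11c+ eosinophils, the group next in order, did not pass (0.392). The call against CD11c- eosinophils was lost when any 1 of the 4 libraries was left out (adjusted p between 0.0569 and 0.134), with a pseudocount of 0.5 (0.0555) and in a fit to these 2 groups alone (0.105). The call against natural helper cells was lost without papain basophil library 1 (0.0641) or papain natural helper cell library 1 (0.137), and in a fit to these 2 groups alone (0.171).

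Markers of alveolar macrophages moved with Ccl24 in part. The summed FPKM of 8 such markers was 295 to 12012 in papain basophils, against 44 to 60 in naive basophils. In eosinophils it was 1155 to 1397 in the CD11c+ gate and 332 to 466 in the CD11c- gate, against 213 to 519 in naive eosinophils. In natural helper cells it was 72 in the 3'UTRKO library and 114 to 957 in papain cells, against 21 to 98 in naive cells, and no marker was at 0 throughout a group. The library with the highest Ccl24, papain basophils 1, also had the highest sum, and the papain natural helper cell library with 5 FPKM of Ccl24 was the one with the sum of 957. Other libraries went against this: papain basophils 2, with 25 FPKM of Ccl24, had a sum of 295, below both CD11c- libraries and below naive eosinophils 2, which had 519 with Ccl24 at 0. Chi3l3 alone gave 10500 FPKM of the sum in papain basophils 1 and 109 FPKM in papain basophils 2. It gave 902 and 1072 FPKM in CD11c+ and 348 and 248 FPKM in CD11c- eosinophils, and 823 FPKM of the sum of 957. Chi3l3 is also in the list of IL-4 and IL-13 response genes, so the sum is not a measure of macrophage RNA alone. The autofluorescence gate of the eosinophil sort is meant to leave out alveolar macrophages. Of these 8 markers, 4 were called higher in papain basophils, 1 in CD11c+ eosinophils, 0 in CD11c- eosinophils and 0 in papain natural helper cells. Among all genes the share called higher was 22.1% in papain basophils and 9.93% in CD11c+ eosinophils. The correlation of Ccl24 with this sum, on the log2 scale, over the 15 libraries was 0.756. It was nearly the same with endothelial markers (0.75). With monocyte and macrophage markers it was 0.719, with epithelial 0.689, with fibroblast 0.665 and with dendritic cell markers 0.641. The correlation thus does not single out alveolar macrophages. The part of macrophage RNA in the Ccl24 differences was not tested.

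**Figure D2:**
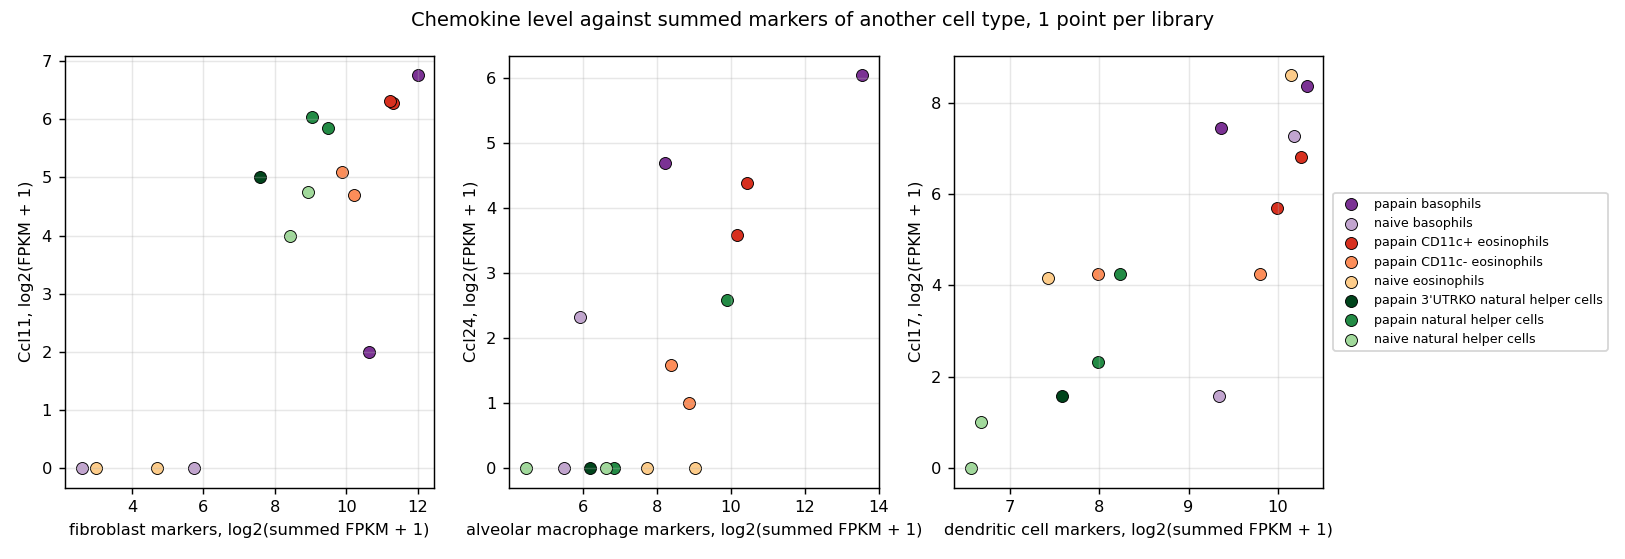
Ccl11, Ccl24 and Ccl17 in log2(FPKM + 1) against the summed markers of fibroblasts, alveolar macrophages and dendritic cells (log2 of summed FPKM + 1), with 1 point per library and colours for the 8 groups. The naive basophils and naive eosinophils, with fibroblast sums of 52 FPKM or less, are those with Ccl11 listed at 0.

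Ccl17, a Ccr4 ligand that dendritic cells are known to secrete, was the most abundant of the 5 genes in both papain basophil libraries, and its naive replicates differed widely. It had 328 and 174 FPKM in papain basophils, against 153 and 2 FPKM in naive basophils. In eosinophils it had 51 and 112 FPKM in the CD11c+ gate and 18 and 18 FPKM in the CD11c- gate, against 17 and 386 FPKM in naive eosinophils, the last being its highest value in the series. The natural helper cells showed 2 FPKM in the 3'UTRKO library and 4 and 18 FPKM in papain cells, against 0 and 1 FPKM in naive cells. Both papain basophil libraries lay above both naive ones, while naive eosinophils spanned both papain gates. By rank among the genes above 0, Ccl17 stood at place 164 in naive eosinophil library 2 and at 240 and 399 in the papain basophil libraries.

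Ccl22, the other Ccr4 ligand, made by macrophages and dendritic cells, followed Ccl17 at a lower level. It had 84 and 127 FPKM in papain basophils, against 70 and 5 FPKM in naive basophils. It had 37 and 41 FPKM in CD11c+ eosinophils and 5 and 5 FPKM in CD11c- eosinophils, against 6 and 189 FPKM in naive eosinophils. Natural helper cells had 3 FPKM in the 3'UTRKO library and 0 and 10 FPKM in papain cells, against 0 and 0 in naive cells. In the 10 libraries where both genes had 5 FPKM or more, the ratio of Ccl17 to Ccl22 lay between 1.37 and 3.91, with a median of 2.46. Their log2 levels had a Pearson correlation of 0.947 over the 15 libraries, and each was the gene most like the other in pattern.

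Mean Ccl17 was 251 ± 109 FPKM in papain against 77.5 ± 107 in naive basophils, and 81.5 ± 43.1 in CD11c+ and 18.0 ± 0 in CD11c- eosinophils, against 201.5 ± 261 in naive eosinophils. Mean Ccl22 was 105.5 ± 30.4 FPKM in papain against 37.5 ± 46.0 in naive basophils, and 39.0 ± 2.83 in CD11c+ and 5.0 ± 0 in CD11c- eosinophils, against 97.5 ± 129 in naive eosinophils (SD, n = 2 each for both genes). For both genes, papain basophils came first in the order of means, then naive eosinophils, CD11c+ eosinophils and naive basophils. Groups of basophils and eosinophils next to each other overlapped for both genes.

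No papain comparison called either gene. Ccl17 differed by 3.48 ± 1.82 between papain and naive basophils (limma, adjusted p = 0.199). It was called without naive library 1 (6.32, adjusted p = 0.0274), and the difference was 0.64 without naive library 2. Ccl22 differed by 2.34 ± 1.65 in the same comparison (adjusted p = 0.332), with 0.55 without naive library 2 and 4.12 without naive library 1. Between CD11c+ and naive eosinophils the differences were -0.12 ± 1.82 for Ccl17 and 0.13 ± 1.65 for Ccl22 (both adjusted p = 1). Without naive library 2 they were 2.09 and 2.51, and without naive library 1 they were -2.34 and -2.25, so a single naive library set the direction. Between CD11c- and naive eosinophils the differences were -2.14 ± 1.82 for Ccl17 (adjusted p = 0.695) and -2.60 ± 1.65 for Ccl22 (0.557), and 0.08 and -0.22 without naive library 2. Papain natural helper cells differed from naive ones by 2.78 ± 1.82 for Ccl17 (adjusted p = 0.677) and 1.73 ± 1.65 for Ccl22 (0.802).

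Dendritic cell markers varied between the naive replicates as Ccl17 did, and less closely in papain libraries. Their summed FPKM over 12 markers was 1281 and 656 in papain basophils, against 1157 and 648 in naive basophils, where Ccl17 was 153 and 2. It was 1019 and 1230 in CD11c+ and 252 and 892 in CD11c- eosinophils, against 171 and 1135 in naive eosinophils, where Ccl17 was 17 and 386. The naive library with more Ccl17 was thus the one with the higher marker sum in both cell types. In CD11c- eosinophils, though, Ccl17 was 18 in both libraries, and the second libraries of papain and naive basophils had nearly equal sums with Ccl17 at 174 and 2. The 3'UTRKO library had 190 and papain natural helper cells 252 to 299, against 93 to 101 in naive natural helper cells, where Flt3, Clec9a, Cd209a and Siglech were at 0. The log2 of this sum had a correlation of 0.82 with Ccl17 and 0.831 with Ccl22 over the 15 libraries, and that of 11 monocyte and macrophage markers 0.843 and 0.809. The part of dendritic cell or macrophage RNA in either gene's levels was not tested.

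Ccl1, the Ccr8 ligand known from activated T cells and mast cells, was high in natural helper cells alone. It had 6 and 3 FPKM in papain basophils, against 1 and 2 FPKM in naive basophils. Eosinophils had 2 and 0 FPKM in the CD11c+ gate and 6 and 3 FPKM in the CD11c- gate, against 0 and 1 FPKM in naive eosinophils. Natural helper cells had 613 FPKM in the 3'UTRKO library and 457 and 625 FPKM in papain cells, against 1100 and 1408 FPKM in naive cells. Among the genes above 0 in a library it ranked at place 117 in the 3'UTRKO library and at 151 and 128 in papain cells, against 74 and 73 in naive cells. The papain natural helper cells (541 ± 119 FPKM) did not overlap with naive ones (1254 ± 218 FPKM; SD, n = 2 each), and the 3'UTRKO value lay between the papain libraries.

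Basophils and eosinophils were below natural helper cells of the same state in each of the 5 pairings tested. On the log2 scale the difference in Ccl1 between naive basophils and naive natural helper cells was -8.99 ± 0.57 (limma, adjusted p = 2.63e-05). In naive eosinophils the difference was -9.78 (adjusted p = 1.09e-05). Under papain it was -6.66 in basophils (adjusted p = 0.000297), -6.66 in CD11c- eosinophils (0.000134) and -8.27 in CD11c+ eosinophils (5.24e-05). These 5 calls held in all 55 alternatives run on them, with adjusted p of at most 0.0221. Between papain and naive natural helper cells, Ccl1 differed by -1.22 ± 0.57, which did not pass (adjusted p = 0.490), and was between -1.44 and -0.99 when single libraries were left out. The summed FPKM of 12 natural helper cell markers was 3839 in the 3'UTRKO library and 5094 to 5196 in papain cells, against 2123 to 4336 in naive cells. Of these markers, Il13 had 407 and 377 FPKM in papain against 93 and 218 in naive cells. Gata3 had 201 and 229 FPKM in papain against 168 and 273 in naive cells. The part of cell composition in the Ccl1 difference was not tested. The papain differences of the other 2 cell types in Ccl1 did not pass either, at 1.11 ± 0.57 in basophils (adjusted p = 0.192), 0.29 ± 0.57 in CD11c+ eosinophils (0.803) and 1.90 ± 0.57 in CD11c- eosinophils (0.157).

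The papain comparisons called Ccl11 and Ccl24 and none of the other 3 genes. In basophils 2 of 5 were called higher, Ccl11 and Ccl24, where 22.1% of all genes tested were called higher and 26% in either direction. In CD11c+ eosinophils against naive eosinophils 2 of 5 were called higher, again Ccl11 and Ccl24, where 9.93% of all genes were called higher and 12.1% in either direction. In CD11c- eosinophils 0 of 5 were called beside 2.24% of all genes, and in natural helper cells 0 of 5 beside 0.786%. The median difference of the 5 was 3.48 in basophils, beside 0.50 over all genes. It was 0.29 in CD11c+ eosinophils (all genes 0.34), 1.29 in CD11c- eosinophils (0.21) and 1.57 in natural helper cells (0.09). The comparisons of both eosinophil gates share the same naive libraries. The median of all genes in basophils became 0.155 with median-ratio scaling and -0.083 with quantile normalization, and 85.1% of the called genes were higher, against 65.5% and 45.4% under these scalings. Ccl11 and Ccl24 were called higher in basophils and in CD11c+ eosinophils under both.

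**Figure D3:**
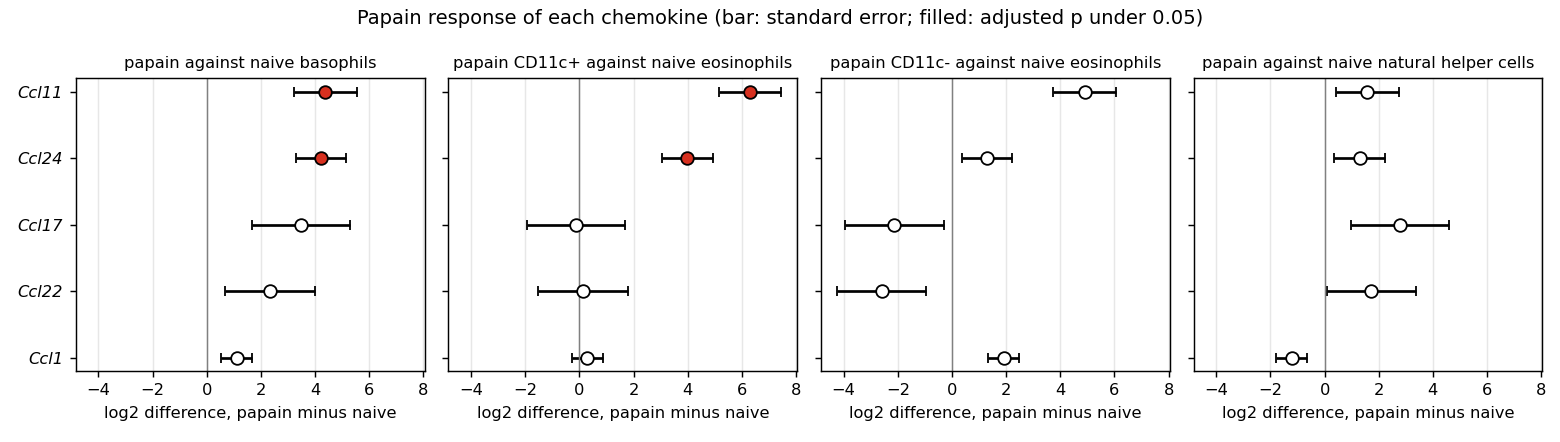
Log2 difference of each chemokine gene between papain and naive libraries (points, with bars of 1 standard error from limma) in basophils, both eosinophil gates and natural helper cells, with a line at 0 and filled points for an adjusted p under 0.05. Ccl11 and Ccl24 passed the test in basophils and CD11c+ eosinophils, and Ccl1 in natural helper cells lay at -1.22 without passing.

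Whether the papain response of the 5 genes differs between cell types was asked with interaction terms, 5 contrasts of 5 genes. None of these 25 tests passed after adjustment, and 3 had an unadjusted p under 0.05. Of all 14257 genes tested, between 1587 and 3265 had an unadjusted p under 0.05 in each of these contrasts, so the 3 do not set the members apart. The share of all genes called was 6.75% for basophils against natural helper cells, 2.36% for basophils against CD11c- eosinophils, 2.52% for basophils against CD11c+ eosinophils, 1.21% for CD11c- eosinophils against natural helper cells and 3.19% for CD11c+ eosinophils against natural helper cells. For Ccl1 the response of CD11c- eosinophils exceeded that of natural helper cells by 3.12 ± 0.81 (limma, adjusted p = 0.141). The Ccl1 response of basophils exceeded that of natural helper cells by 2.33 ± 0.81 (0.128), which passed with a pseudocount of 4 (0.0369). Ccl1 was at most 6 FPKM in basophils and eosinophils, near the floor. For Ccl11 the response of CD11c+ eosinophils exceeded that of natural helper cells by 4.73 ± 1.63 (limma, adjusted p = 0.1685).

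The CD11c+ gate was set against the CD11c- gate within papain eosinophils. Ccl11 had 77 and 79 FPKM in CD11c+ against 25 and 33 in CD11c- libraries, Ccl24 11 and 20 against 1 and 2, Ccl17 51 and 112 against 18 and 18, and Ccl22 37 and 41 against 5 and 5. Ccl1 had 2 and 0 FPKM in CD11c+ against 6 and 3 in CD11c- libraries. None of the 5 was called by limma, beside 0.0561% of all genes (8 genes; 1283 genes had an unadjusted p under 0.05). The marker sums of fibroblasts, alveolar macrophages, and monocytes and macrophages were all higher in both CD11c+ libraries than in both CD11c- libraries. So were those of dendritic cells (1019 and 1230 against 252 and 892 FPKM), neutrophils and natural helper cells. The eosinophil markers themselves were higher too (1199 to 1235 against 895 to 905 FPKM). The sums of basophils, mast cells, T cells, B cells, endothelium and epithelium overlapped or met between the gates. The part of these cells was not tested.

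The 3'UTRKO library was compared with the 2 papain natural helper cell libraries, and has no replicate of its own. None of the 5 genes was called, beside 0.568% of all genes. The differences were 0.20 ± 0.70 for Ccl1 (limma, adjusted p = 1), -0.95 ± 1.42 for Ccl11 (0.999), -1.70 ± 2.23 for Ccl17 (0.980), 0.27 ± 2.02 for Ccl22 (1) and -1.29 ± 1.14 for Ccl24 (0.880). Ccl11 (31 FPKM, against 65 and 57) and Ccl17 (2, against 4 and 18) lay below both papain libraries. Fibroblast markers lay below them too, with a sum of 190 against 525 to 722.

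At the naive state, more of the 5 genes were called between eosinophils and natural helper cells than between basophils and natural helper cells, a difference in counts that was not tested. Against naive natural helper cells, naive eosinophils were called in 4 of 5 genes, where 28.1% of all genes were called. Ccl17 was higher in the eosinophils by 5.88 ± 1.82 (limma, adjusted p = 0.0400) and Ccl22 by 5.19 ± 1.65 (0.0440). Both calls rest on naive eosinophil library 2, without which the differences were 3.67 (adjusted p = 0.237) and 2.81 (0.261). They were also lost without either natural helper cell library (adjusted p between 0.106 and 0.172), with a pseudocount of 4 (0.0703 and 0.0838), for Ccl22 with no filter on low values (0.0536), with the replicate number as a block (0.0568 for Ccl17 and 0.0539 for Ccl22) and in a fit to these 2 groups alone (0.131 and 0.166). Naive basophils were called in 2 of 5 genes against naive natural helper cells, beside 20.6% of all genes. Ccl11, at 0 in naive basophils and naive eosinophils, was lower than in naive natural helper cells by a difference of -4.38 ± 1.16 in each (adjusted p = 0.0285 for basophils and 0.0210 for eosinophils). Each of these 2 calls was lost when any 1 of its 4 libraries was left out (adjusted p between 0.0679 and 0.145) and with a pseudocount of 4 (0.0937 and 0.0784). Naive basophils against naive eosinophils called 0 of 5, beside 14% of all genes.

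Between cell types under papain, the calls were those of Ccl1 and Ccl24 given above. Papain basophils against papain natural helper cells called 2 of 5 genes, beside 19.7% of all genes. Papain basophils against CD11c- eosinophils called 1 of 5, beside 11.4%, and against CD11c+ eosinophils 0 of 5, beside 6.26%. CD11c- eosinophils against papain natural helper cells called 1 of 5, beside 16.6%, and CD11c+ eosinophils against them 1 of 5, beside 17.6%. Over the 14 comparisons of groups, 15 of 70 tests of the 5 genes passed, where between 0.0561% and 28.1% of all genes were called in each comparison. The comparisons share libraries, and 5 of the 15 are Ccl1 against natural helper cells, so the 15 are not separate results.

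The receptors of these ligands were split between the cell types. Ccr3, the eotaxin receptor, had 4 and 1 FPKM in papain basophils, against 9 and 6 FPKM in naive basophils, and was called lower (-1.40 ± 0.44, limma adjusted p = 0.0468). It had 124 and 151 FPKM in CD11c+ and 154 and 148 FPKM in CD11c- eosinophils, against 192 and 229 FPKM in naive eosinophils, and at most 1 FPKM in natural helper cells. So the eotaxin receptor was high in eosinophils, which in the naive state listed both eotaxins at 0. Ccr8, the receptor of Ccl1, was high in the cells that carried Ccl1. It had 399 FPKM in the 3'UTRKO library and 341 and 334 FPKM in papain natural helper cells, against 291 and 309 FPKM in naive ones, and at most 23 FPKM in any other library. Ccr4 had 23 FPKM in the 3'UTRKO library and 30 and 38 FPKM in papain natural helper cells, against 12 and 25 FPKM in naive ones, and at most 4 FPKM elsewhere. The library with the highest Ccr4, papain natural helper cells 2, had 18 FPKM of Ccl17 and 10 of Ccl22. In the naive state Ccr8 and Ccr4 were lower than in natural helper cells both in basophils (differences -7.44 and -3.20, adjusted p = 0.00361 and 0.0181) and in eosinophils (-8.23 and -4.20, adjusted p = 0.00122 and 0.00325). Of 8 receptors and scavengers of these ligands, 1 was called higher and 1 lower in papain basophils, beside 26% of all genes in either direction. The one called higher was Ccbp2, a scavenging receptor, with 1 and 9 FPKM against 0 and 0. None of the 8 was called in papain natural helper cells or in either eosinophil gate against naive eosinophils.

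**Figure D4:**
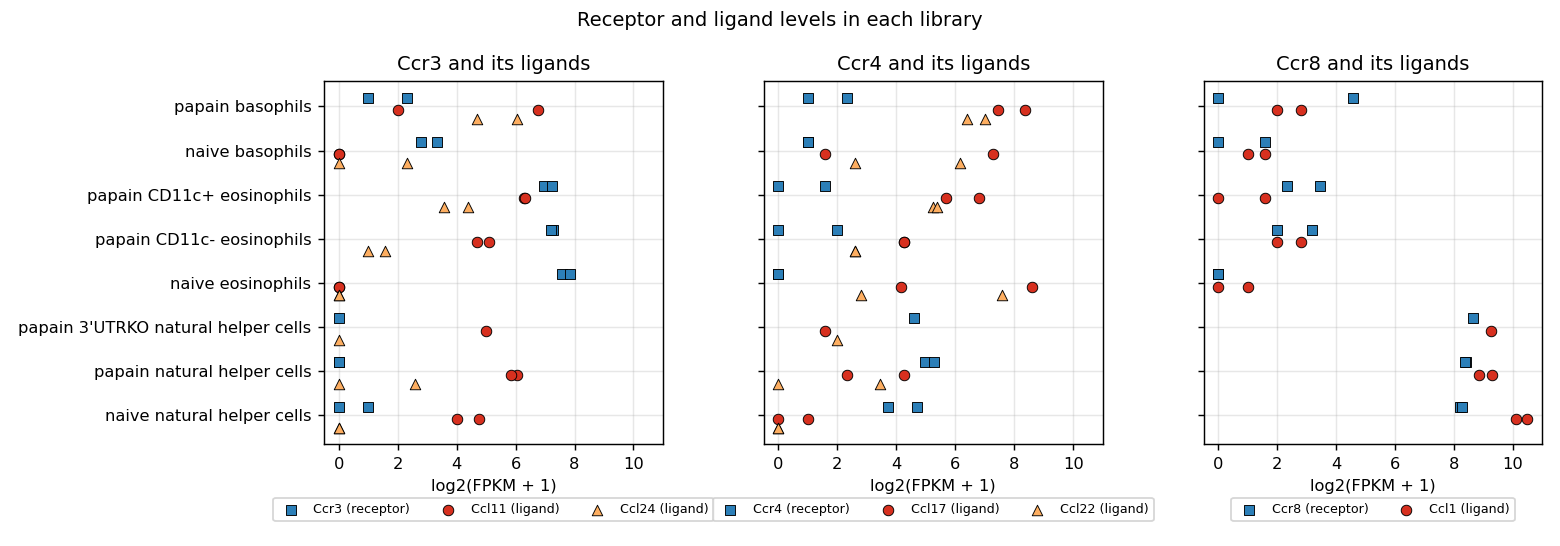
FPKM (log2(FPKM + 1) axis) of the 5 ligands and of their receptors Ccr3, Ccr4 and Ccr8 in each library. Ccr3 is high in eosinophils (124 to 229 FPKM), and Ccr8 and Ccl1 are high together in natural helper cells.

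Ccl11 and Ccl1 sit at different places of 1 chemokine cluster. In the RefSeq gene order, Ccl2, Ccl7, Ccl11, Ccl12, Ccl8 and Ccl1 follow each other on chromosome 11. Ccl1, at the end of that row, was high in natural helper cells, while Ccl2 and Ccl7, attractants of monocytes at the other end, were called higher in papain basophils and in both eosinophil gates. Ccl2 had 716 and 465 FPKM in papain basophils, against 56 and 6 FPKM in naive basophils (4.85 ± 0.80, limma adjusted p = 0.00407). Ccl7 had 390 and 392 FPKM in CD11c+ eosinophils, against 1 and 2 FPKM in naive eosinophils (7.32 ± 0.43, adjusted p = 0.000114). In natural helper cells Ccl2 had 57 FPKM in the 3'UTRKO library and 299 and 334 FPKM in papain cells, against 122 and 138 FPKM in naive cells, so it was present beside Ccl1 there. Ccl8 had 91 and 7 FPKM in papain basophils, against 1 and 0 FPKM in naive basophils, and at most 8 FPKM in natural helper cells. Ccl17 and Ccl22 lie on chromosome 8 with Cx3cl1 between them. Cx3cl1, a membrane-bound chemokine, had at most 17 FPKM in any library and did not share their high values. Ccl26, an eotaxin gene next to Ccl24 on chromosome 5, was listed at 0 in all 15 libraries.

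**Figure D5:**
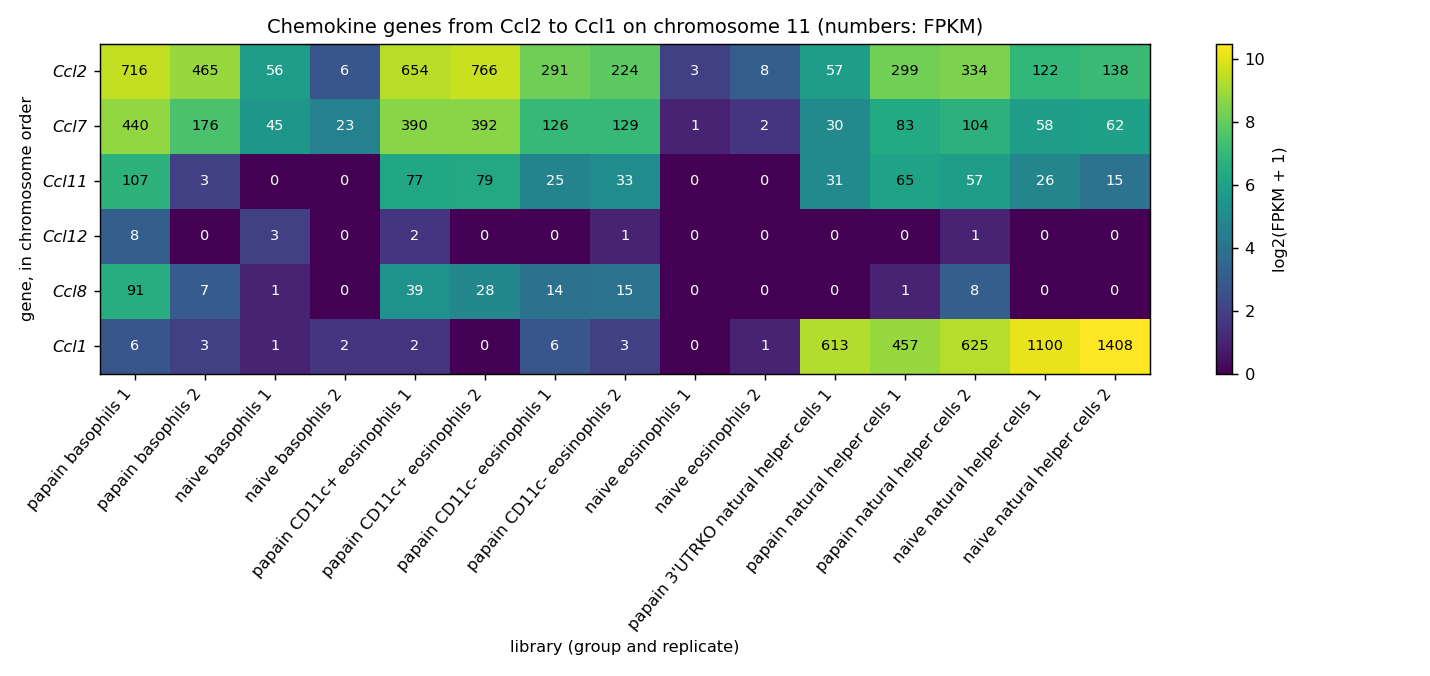
FPKM (log2(FPKM + 1) colour scale) of the 6 genes of the chromosome 11 chemokine cluster, in gene order, in each library. Ccl2 is high in papain basophils and both eosinophil gates and stands at 299 and 334 FPKM in papain natural helper cells, and Ccl1 is high in natural helper cells alone.

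Of 15 other CC chemokines, 14 were tested. For the counts below, 22.1% of all genes were called higher in papain basophils and 9.93% in CD11c+ eosinophils. In either direction it was 26% in papain basophils, 12.1% in CD11c+ eosinophils, 2.24% in CD11c- eosinophils and 0.786% in natural helper cells. In papain basophils 4 of them rose and 0 fell, among them Ccl2, Ccl8 and Ccl21a, a chemokine of lymphatic vessels, with a median over the list of 1.03 (all genes 0.50). In CD11c+ eosinophils 3 rose (Ccl7, Ccl2 and Ccl8), in CD11c- eosinophils 2 (Ccl7 and Ccl2), and in natural helper cells 0. Genes of the IL-4 and IL-13 signal and the alarmins went both ways. In papain basophils 3 of 13 rose, among them the alarmin Il33 (4.22 ± 0.47, limma adjusted p = 0.000689) and the receptor chain Il13ra1 (2.82 ± 0.28, 0.000453), and 5 fell, among them Il13 (-2.34 ± 0.55, 0.0165). The median of this list in papain basophils was -0.53 (all genes 0.50). CD11c+ eosinophils had 3 higher and 3 lower, CD11c- eosinophils 1 higher and 1 lower, and natural helper cells 1 higher. Stat6 itself was lower in CD11c- eosinophils than in naive eosinophils by a difference of -1.01 ± 0.15 (adjusted p = 0.0122). Its level was not particular to that gate, with 72 and 62 FPKM in CD11c+ and 84 and 76 FPKM in CD11c- eosinophils, against 183 and 144 FPKM in naive eosinophils. Papain basophils had 45 and 48 FPKM, against 93 and 87 FPKM in naive basophils. Papain natural helper cells had 45 and 45 FPKM, against 37 and 35 FPKM in naive ones. Known response genes of IL-4 and IL-13 included 6 of 14 higher and 3 lower in papain basophils (median 1.98), 4 higher in CD11c+ eosinophils (1.47), 1 higher in CD11c- eosinophils (0.99) and 0 in natural helper cells (0.50). Retnla, a secreted protein of that set, was called higher in papain basophils (7.66 ± 1.57, adjusted p = 0.00988).

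The genes whose pattern over the 15 libraries was most like each chemokine, by Pearson correlation of log2 levels among genes with a group mean of 10 FPKM or more, differed from gene to gene. For Ccl11 they were Gsn (0.971), Dpt (0.965), Tnfaip6 (0.958), Mfap5 (0.957) and Lum (0.957), several of them matrix genes. Dpt, an extracellular matrix protein, had 105 and 18 FPKM in papain basophils, against 1 and 0 FPKM in naive basophils. For Ccl24 they were Prdx1 (0.958), Ctsb (0.938), Fabp4 (0.934), Slc31a1 (0.93) and Ms4a6d (0.927). For Ccl17, after Ccl22, they were Sgpl1 (0.925), Cst3 (0.916), Plbd1 (0.912) and Ctsz (0.902), and for Ccl22, after Ccl17, Plbd1 (0.895), Fnip2 (0.893), Oasl1 (0.888) and Cxcl16 (0.872). Plbd1 is in both lists. For Ccl1 they were Gata3 (0.981), the transcription factor that defines natural helper cells and type 2 helper T cells, with Amph (0.98), Bmp7 (0.978), Podnl1 (0.977) and Nrgn (0.977). These are descriptions of 15 libraries that share groups and normalization. For Ccl1, 2 of the 5 genes stayed among its 5 with quantile normalization and 2 with median-ratio scaling. Among the members, Ccl24 followed Ccl17 (0.696) and Ccl22 (0.668) more closely than Ccl11 (0.382), and Ccl1 ran against Ccl17 (-0.702) and Ccl22 (-0.71).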

How the data were processed

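Per the labels' protocols, NEBNext kits were used for poly(A) selection and library preparation from the RNA of sorted lung cells. TopHat 1.4.0, Cufflinks 1.3.0 and the mm9 build are named per the submitters' processing notes. Each gene symbol has 1 deposited score in each library, which from the values and the tool is FPKM rounded to a whole number by the authors. Which annotation and filters they used is not given in the sources used here. FPKM keeps no read depth, so the spread between replicates is the only measure of precision.

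Commas were removed from 1008 cells, and 3 values that were not whole numbers were set to 0. The 14257 genes that reached 1 FPKM in 2 or more of the 15 libraries were tested as log2(FPKM + 1) with limma 3.58.1 (R 4.3.3), with no further scaling. The model had 8 group means over all libraries and 7 residual degrees of freedom, with a trended variance prior. Tests were two-sided, and Benjamini-Hochberg adjustment ran over all genes tested in each comparison. All 5 chemokine genes passed the filter. The fit was tested on simulated data.

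The members and gene lists were chosen with earlier results of these data known, and a list is described by its counts and median beside those of all genes. Named genes are the members, the up to 3 called genes of each pathway list with the largest difference, no overlap of libraries and a group mean of 5 FPKM or more, the 5 genes most correlated with each member, cluster neighbours, receptors and marker genes. The 13 marker lists hold 124 genes, of which 5 are not in the table under the symbol used and 1 is in 2 lists. Promoter sequences are from RefSeq. Alternatives were other pseudocounts, no filter, 2 other scalings, the replicate number as a block, a fit to the compared groups alone and leaving out each library.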

Additional observations from a re-analysis of the deposited data

How the results depend on the processing

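Of 227 alternatives for the 19 counts of chemokine genes called, 192 gave a count within 1.5 times the reported one and 35 did not. The 192 include reported counts of 0 that stayed at 0, so they say little on how stable the counts above 0 were. A pseudocount of 4 gave 1 call for papain against naive basophils (reported 2), 1 for naive basophils and 1 for naive eosinophils against naive natural helper cells (2 and 4), and 1 for the response of basophils against that of natural helper cells (0). A pseudocount of 0.5 gave 1 for CD11c- against naive eosinophils (0) and 0 for papain basophils against CD11c- eosinophils (1), and median-ratio scaling gave 1 for CD11c- against naive eosinophils. A fit to the compared groups alone gave 0 for papain against naive basophils (adjusted p = 0.280 for Ccl11 and 0.168 for Ccl24), 2 for naive eosinophils against naive natural helper cells, 1 for papain basophils against papain natural helper cells (2), and 1 for CD11c- against naive eosinophils and for the responses of both eosinophil gates against that of natural helper cells (0). The replicate block gave 2 for naive eosinophils against naive natural helper cells (4) and moved no other count. Deviations of same-numbered libraries had correlations between -0.153 and 0.116 over 21 pairs of groups, so little shared deviation was seen. Whether same-numbered libraries came from the same mice cannot be told from this. The causes of these changes were not tested.

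With single libraries left out, counts lay between 0 and 2 for papain against naive basophils, 1 and 3 for naive eosinophils and 1 and 2 for naive basophils against naive natural helper cells, 0 and 1 for CD11c+ against naive eosinophils, 1 and 2 for CD11c+ eosinophils and for papain basophils against papain natural helper cells, 0 and 1 for papain basophils against either eosinophil gate, and 0 and 1 for the response of basophils against that of each other group. Directions turned for differences that did not pass. For CD11c+ against naive eosinophils, Ccl22 was -0.0325 with a pseudocount of 4, -0.32 with quantile normalization and -0.24 with median-ratio scaling, and Ccl1 was -0.0528 with quantile normalization. With single libraries left out these were between -2.25 and 2.51 for Ccl22, -0.50 and 1.09 for Ccl1 and -2.34 and 2.09 for Ccl17, and Ccl17 in CD11c- against naive eosinophils lay between -4.35 and 0.078. For the 3'UTRKO library against papain natural helper cells, Ccl22 was -0.10 with a pseudocount of 4 and between -1.46 and 2.00 without 1 papain library, and Ccl1 lay between -0.0279 and 0.42.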
